A study of Rattus norvegicus with 18 samples.

Results

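The Notch genes examined here are 10 genes of the Notch signalling pathway in rat lung, namely the receptors *Notch1*, *Notch2*, *Notch3* and *Notch4*, the ligands *Dll1*, *Dll4*, *Jag1* and *Jag2*, and the target genes *Hes1* and *Hey1*. They were chosen by name, and each matched 1 of the 22081 genes in the expression data. RNA was sequenced from portions of the accessory lung lobe of 18 male F344 rats, 3 in each of 6 groups. Control rats received the vehicle (saline with a detergent) and MWCNT-treated rats received MWNT-7, a multiwalled carbon nanotube, by instillation into the trachea, which was repeated from early adulthood until the lungs were taken at Year 0.5, Year 1 or Year 2 after the start. The MWCNT-treated rats came from the higher dose level of the study, and tissue with tumour nodules had been left out. Each time point had its own control rats, so year cannot be told apart from age and collection. Library totals lay between 13297643 and 17868851 counts for the 9 controls and between 14661589 and 21130757 for the 9 treated animals, and each of the 10 genes held 121 to 7608 counts per rat.

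Notch signalling passes between touching cells. A ligand of the Delta-like or Jagged family on one cell binds a Notch receptor on its neighbour, metalloproteases and then the gamma-secretase complex cut the receptor, and the freed intracellular part joins the DNA-binding protein RBPJ in the nucleus to switch on genes such as those of the Hes and Hey families, which encode repressors of transcription. In lung, *Dll4* and *Notch4* are known mainly from the endothelium, *Notch3* from smooth muscle cells and pericytes, and Notch signals in airway epithelium set the balance of secretory and ciliated cells.

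RBPJ binds the core letters TGGGAA, so the promoters of the members that held this core upstream of their start are shown to let its place be seen beside the values. Of the 10 members, 8 matched the RefSeq promoter table of build GRCr8, which gives 250 bases before to 50 after each gene's start. *Dll4* and *Hey1* had no entry. The core was searched as TGGGAA on both strands, and 3 members held it before their start, each at 2 places. Bases before the start follow in lower case, 5′ to 3′ on the gene's strand, with TGGGAA or its reverse complement TTCCCA in capitals. The windows lie at chr11:84213046-84213295 (minus strand) for *Hes1*, chr1:64993275-64993524 (minus strand) for *Dll1* and chr20:4189073-4189322 (minus strand) for *Notch4*, a gene that GRCr8 and Rnor_6.0, the build of the expression data, give on opposite strands.
Hes1: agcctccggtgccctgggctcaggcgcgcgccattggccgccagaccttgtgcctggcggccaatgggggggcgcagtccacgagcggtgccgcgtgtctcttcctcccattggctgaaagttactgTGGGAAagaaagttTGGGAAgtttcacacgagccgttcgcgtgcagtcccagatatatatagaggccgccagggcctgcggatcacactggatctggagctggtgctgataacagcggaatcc
Dll1: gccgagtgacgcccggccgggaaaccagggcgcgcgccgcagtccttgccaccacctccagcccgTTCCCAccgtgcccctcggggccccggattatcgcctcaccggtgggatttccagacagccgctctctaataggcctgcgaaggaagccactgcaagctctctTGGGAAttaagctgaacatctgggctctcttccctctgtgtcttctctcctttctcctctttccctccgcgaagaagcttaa
Notch4: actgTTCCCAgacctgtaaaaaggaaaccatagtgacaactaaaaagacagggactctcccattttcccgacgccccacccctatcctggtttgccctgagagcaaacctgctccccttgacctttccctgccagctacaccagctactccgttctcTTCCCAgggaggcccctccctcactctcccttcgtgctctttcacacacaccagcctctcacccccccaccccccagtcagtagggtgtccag
Counted in bases from the start, with negative positions before it, the 2 cores of *Hes1* began at -123 and -109 and pointed the same way. In *Dll1* they lay at -185 and -82 and pointed opposite ways, and in *Notch4* they lay at -246 and -93, both on the reverse strand. With the bases after the start, where *Notch3* had 1 core, 4 of the 8 matched members held TGGGAA, against 25.7% of all 33469 promoters of the same length. The longer form GTGGGAA, which contains the core, occurred in *Hes1* and *Dll1* and in 6.29% of all promoters. Of 2 letter strings that Hes and Hey repressors are known to bind, CACGTG was in none of the 8 and in 6.42% of all promoters, and CACGCG was in 4 (*Notch2*, *Jag1*, *Jag2* and *Hes1*) and in 8.5% of all. *Jag2* had 2 entries in the promoter table, and CACGCG was in 1 of them. A member was counted if any of its entries held the letters, whereas the shares of all promoters count each entry. Such matches are descriptions of letters and not of binding.

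Most of the Notch genes were lower in the MWCNT-treated lungs at all 3 time points. The ligand *Dll4* fell furthest, to 2.89-fold lower at Year 0.5, 2.16-fold lower at Year 1 and 4.78-fold lower at Year 2, and at Year 2 *Hey1*, *Dll1* and *Notch4* were 2.68-, 2.55- and 2.17-fold lower. *Notch2* was the only member that rose against the controls of its own year, by a fold of 1.26 at Year 0.5 and 1.24 at Year 2. A gene was called a differentially expressed gene (DEG) where edgeR's quasi-likelihood test gave a false discovery rate (FDR) under 0.05 over all genes tested and the absolute log2 fold change was above 1. By this rule 1 member was lower at Year 0.5 (*Dll4*), 2 at Year 1 (*Dll1* and *Dll4*) and 4 at Year 2 (*Notch4*, *Dll1*, *Dll4* and *Hey1*), and none was higher. Of all genes tested, 3.03%, 4.09% and 8.22% were DEGs lower in treated lungs at Years 0.5, 1 and 2, and 9.1%, 10.2% and 16.4% were DEGs in either direction. By FDR alone, 8, 8 and 7 members were lower and 1, 0 and 1 higher. Over all genes, 18.6%, 19.6% and 24% were lower and 38.8%, 41.2% and 49.2% passed in either direction. By the same rule 6 members (*Notch1*, *Notch3*, *Notch4*, *Dll1*, *Dll4* and *Hes1*) were lower in every year, against 12.2% of the genes tested in all 3. The median log2 fold change of the 10 members was -0.54, -0.56 and -0.75, against -0.02, 0.00 and -0.01 over all genes tested. In these bulk samples, fewer cells of a type and less RNA per cell cannot be told apart.

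**Figure D1:**
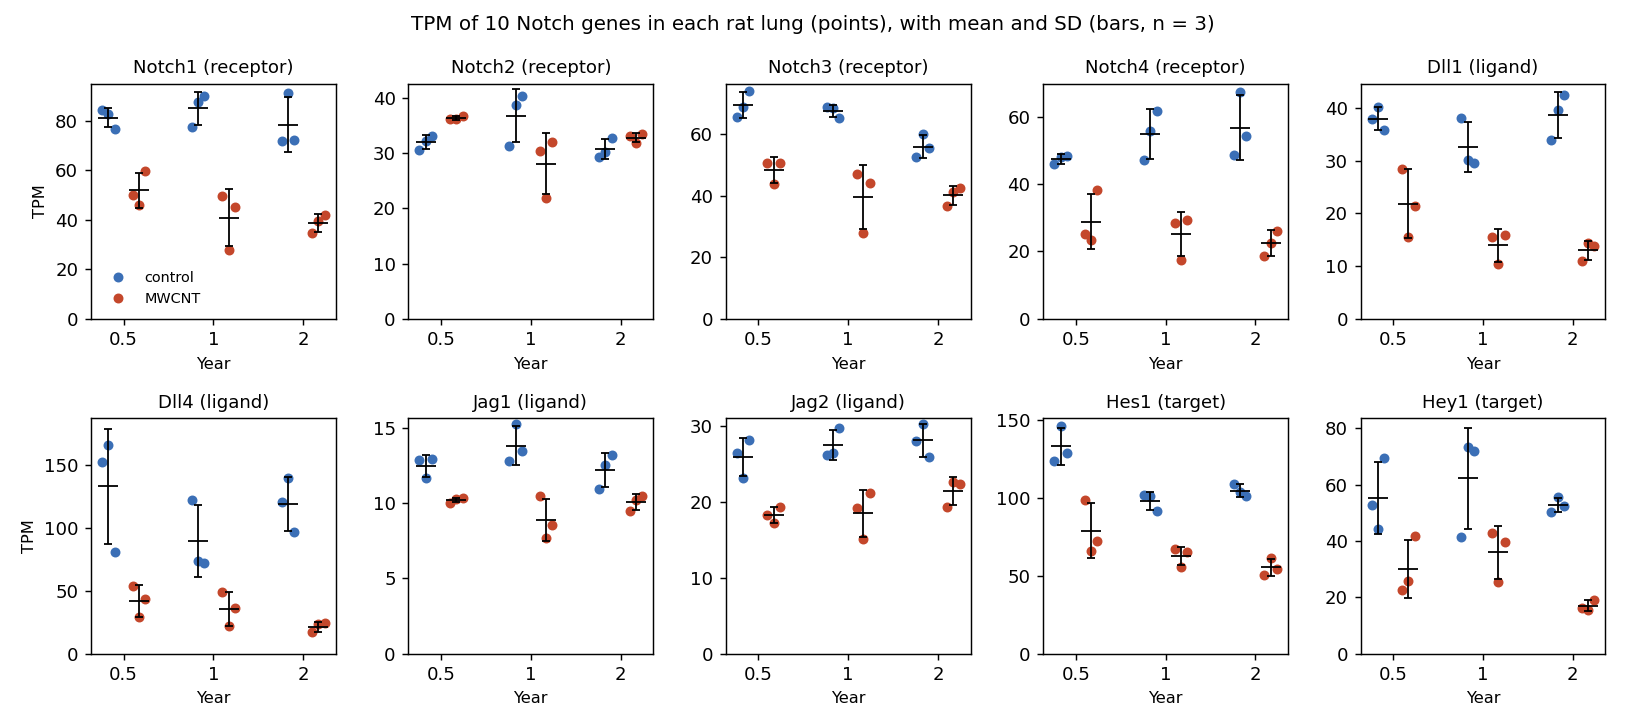
TPM of each of the 10 Notch genes (vertical axis, from 0) in every rat by year (horizontal axis). Points are single rats, blue for control and red for MWCNT-treated, and black bars give the mean and SD of 3 rats. The treated points lie below the control points in every year for *Dll4* (at most 53.8 against at least 72.2 TPM over all years) and for *Notch4* (at most 38.2 against at least 45.8 TPM), whereas the points of *Notch2* overlap at Year 1 and Year 2.

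In TPM (transcript abundance scaled for transcript length and library size), the 3 treated rats lay below the 3 controls for 9, 8 and 9 of the 10 members at Years 0.5, 1 and 2. The share over all tested genes was 40.7%, 46.8% and 45.7%, and the median log2 ratio of mean TPM over all tested genes was -0.16, -0.23 and -0.23. On log2 CPM (counts scaled for library size, here with TMM factors, the trimmed mean of M-values), 8, 8 and 7 members lay below, against 25.5%, 26.9% and 28.9% of all genes. In TPM, 8 members were below in every year, against 29.3% of the genes tested in all 3, and *Notch2* and *Hey1* were those that were not. Treated replicate 2 of Year 1 had the lowest TPM of its group for all 10 members, and also the lowest summed TPM of endothelial markers in that group (1542 against 2081 and 2094).

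Among the receptors, *Notch4*, known mainly from endothelial cells, fell at each time point. The gene lies at chr20:4329811-4353785 (plus strand, Rnor_6.0). Its TPM was 45.8, 48.1 and 48.5 in the Year 0.5 controls and 25.1, 23.3 and 38.2 in the treated rats. By Year 1 the values were 47.0, 55.8 and 61.7 in controls and 28.5, 17.6 and 29.5 in treated rats. By Year 2 they were 48.5, 67.4 and 54.4 in controls and 18.7, 22.6 and 26.2 in treated rats. No treated rat reached the lowest control of its year, and the treated rat nearest to it was replicate 3 of Year 0.5. By edgeR, the log2 fold change was -0.58 (SE 0.15, FDR 0.017), -0.90 (SE 0.16, FDR 0.00238) and -1.12 (SE 0.13, FDR 0.000114). Without control replicate 2, the highest control of Year 2, the Year 2 value was -0.99 and no longer past the fold threshold. At Year 0.5 the FDR rose to 0.0598 without treated replicate 1 and to 0.057 without treated replicate 2.

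*Notch1*, the receptor with the highest TPM in controls and one used by many cell types, fell at each time point without passing the fold threshold. Its TPM ranged from 71.8 to 91.3 over the 9 control rats and from 27.8 to 59.8 over the 9 treated rats. Within each year the treated rats lay below the controls, as they did for 29.3% of the genes tested in all 3 years. The log2 fold change was -0.51 (SE 0.09, FDR 0.00259), -0.83 (SE 0.16, FDR 0.00353) and -0.80 (SE 0.10, FDR 0.000196) in order of year. *Notch3*, the receptor of smooth muscle cells and pericytes, fell less, with log2 fold changes of -0.38 (SE 0.07, FDR 0.00348), -0.54 (SE 0.15, FDR 0.0163) and -0.26 (SE 0.07, FDR 0.0135). Its TPM was 52.6 to 74.2 in controls and 27.9 to 50.8 in treated rats, which again lay below the controls within each year. The FDR of *Notch3* at Year 2 was 0.0588 without treated replicate 1 and 0.0741 when all 18 rats were fitted in one model.

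*Notch2* moved in the other direction from the rest of the receptors at Year 0.5 and Year 2, but not at Year 1. At Year 0.5 its TPM was 30.6, 32.2 and 33.2 in controls and 36.2, 36.2 and 36.7 in treated rats, so that every treated rat was above every control. At Year 1 it was 31.3, 38.7 and 40.4 in controls and 30.4, 21.8 and 32.1 in treated rats, and the groups overlapped. At Year 2 it was 29.3, 30.3 and 32.8 in controls and 33.1, 31.8 and 33.5 in treated rats, which overlapped as well. In order of year, the log2 fold change was 0.33 (SE 0.06, FDR 0.00205), -0.16 (SE 0.13, FDR 0.337) and 0.31 (SE 0.07, FDR 0.00452). The rise at Year 2 was not called under every scaling. With library size alone it was 0.14 (FDR 0.112), and with limma on log2(TPM + 1) it was 0.09 (FDR 0.357).

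Of the ligands, *Dll4*, which is known from arteries and sprouting vessels, had the largest changes of the 10 members in every year. The gene lies at chr3:111135021-111145986 (plus strand). Its TPM was 153, 166 and 80.8 in the Year 0.5 controls and 53.8, 28.7 and 43.2 in the treated rats. In the Year 1 lungs it was 122, 73.4 and 72.2 in controls and 48.8, 21.7 and 36.4 in treated rats. In the Year 2 lungs it was 120, 139 and 96.7 in controls and 16.9, 23.5 and 24.0 in treated rats. The groups did not overlap in any year, although the controls spread from 72.2 to 166 TPM over the years. The log2 fold change was -1.53 (SE 0.28, FDR 0.0029), -1.11 (SE 0.28, FDR 0.0124) and -2.26 (SE 0.16, FDR 6.4e-06). At Year 1 it was -0.79 without control replicate 1, the highest control, and -0.88 without treated replicate 2, the lowest treated rat, and either omission ended the DEG call.

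*Dll1*, another Delta-like ligand that activates Notch receptors, fell at each time point. The gene lies at chr1:57318708-57327379 (minus strand). Its TPM was 38.0, 40.1 and 35.7 in the Year 0.5 controls and 28.5, 15.5 and 21.5 in treated rats. At Year 1 it was 38.2, 30.2 and 29.5 in controls and 15.6, 10.4 and 15.9 in treated rats. At Year 2 it was 34, 39.6 and 42.5 in controls and 11, 14.3 and 13.8 in treated rats. All treated rats lay below all controls of their year. The log2 fold change was -0.66 (SE 0.18, FDR 0.0171), -1.0 (SE 0.16, FDR 0.00126) and -1.35 (SE 0.10, FDR 1.05e-05). The Year 1 call stood at the fold threshold and was lost without control replicate 1 (-0.85) or treated replicate 2 (-0.86), and at Year 0.5 the FDR rose to between 0.0515 and 0.0555 without control replicate 1 or 2 or treated replicate 3.

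The Jagged ligands had small differences. *Jag1*, a ligand of endothelium and smooth muscle, was the least abundant member, at 11 to 15.2 TPM in controls and 7.69 to 10.5 TPM in treated rats. Its log2 fold change was -0.40 at Year 1 (SE 0.11, FDR 0.0169), and -0.15 (FDR 0.15) and -0.06 (FDR 0.56) at Year 0.5 and Year 2. Treated rats lay below controls of their year in TPM in each year, but on log2 CPM the *Jag1* groups overlapped at Year 2. *Jag2* had TPM of 23.2 to 30.3 in controls and 15.1 to 22.6 in treated rats, and its groups also overlapped on log2 CPM at Year 2. It fell by 0.36 (FDR 0.00844) at Year 0.5 and 0.34 (FDR 0.0286) at Year 1 on the log2 scale, and the change of -0.18 at Year 2 did not pass (FDR 0.11). At Year 1 the *Jag2* call was lost in 4 of the 6 fits that left out a rat, with FDR between 0.0503 and 0.112, and that of *Jag1* was lost without control replicate 2 (FDR 0.0644) or treated replicate 3 (FDR 0.0573). With library size alone, *Jag1* passed at Year 0.5 (-0.25, FDR 0.0234) and Year 2 (-0.23, FDR 0.0477) and *Jag2* at Year 2 (-0.35, FDR 0.00937).

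Both target genes fell. *Hes1*, which encodes a repressor of transcription, had TPM of 124, 146 and 129 in the Year 0.5 controls and 98.8, 65.6 and 72.2 in treated rats. At Year 1 it was 101, 101 and 91.4 in controls and 67.0, 55.8 and 65.1 in treated rats. At Year 2 it was 109, 104 and 101 in controls and 50.6, 61.4 and 54.4 in treated rats. The groups did not overlap in any year. The log2 fold change was -0.61 (SE 0.14, FDR 0.00829), -0.41 (SE 0.08, FDR 0.00391) and -0.70 (SE 0.09, FDR 0.00018).

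*Hey1*, a related repressor known from arterial endothelium, was lower at Year 0.5 and Year 2. The gene lies at chr2:95320283-95322696 (plus strand). Its TPM was 52.6, 44.2 and 69.3 in the Year 0.5 controls and 22.4, 25.8 and 41.6 in treated rats. At Year 1 it was 41.5, 73.3 and 71.9 in controls and 42.9, 25.3 and 39.7 in treated rats. At Year 2 it was 50.3, 55.5 and 52.4 in controls and 16.3, 15.4 and 19.2 in treated rats. In TPM the *Hey1* groups overlapped at Year 1 and in no other year, and control replicate 1 of Year 1 was the lowest control. On log2 CPM they overlapped at Year 0.5 as well. The log2 fold change was -0.75 (SE 0.23, FDR 0.0298), -0.57 (SE 0.22, FDR 0.0691) and -1.42 (SE 0.12, FDR 1.47e-05). At Year 0.5 the FDR lay between 0.0696 and 0.102 without control replicate 1 or 3 or treated replicate 1 or 2. At Year 1 the FDR was 0.0105 without control replicate 1 and 0.0246 by DESeq2.

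**Figure D2:**
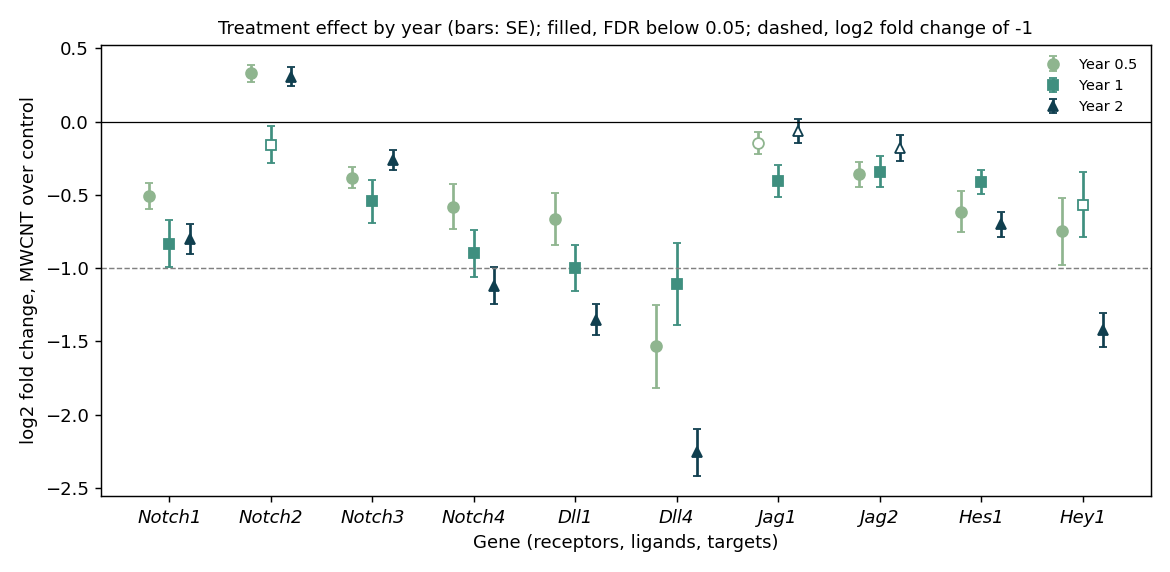
Log2 fold change of MWCNT-treated over control lungs (vertical axis, with SE bars) for each Notch gene (horizontal axis) at Years 0.5, 1 and 2, with filled symbols at an FDR under 0.05. *Dll4* lies lowest in every year, at -1.53, -1.11 and -2.26, and *Notch2* is above 0 at Year 0.5 and Year 2.

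The order of levels between genes can be read from TPM. Over the 9 controls, *Dll4* (114 ± 34.9 TPM, SD, n = 9) and *Hes1* (112 ± 17.5) led, followed by *Notch1* (81.6 ± 7.41), *Notch3* (64.5 ± 7.03), *Hey1* (56.8 ± 11.9), *Notch4* (53.0 ± 7.45), *Dll1* (36.4 ± 4.46), *Notch2* (33.2 ± 3.82), *Jag2* (27.2 ± 2.16) and *Jag1* (12.8 ± 1.19). The ranges of neighbours in this order overlapped except between *Hes1* and *Notch1*, *Notch4* and *Dll1*, and *Jag2* and *Jag1*. Over the 9 treated rats *Hes1* led at 65.6 ± 14.2 TPM, *Dll4* was at 33.0 ± 13.1 TPM, and all neighbouring ranges overlapped.

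Whether the treatment effect differed between years was tested as an interaction in one edgeR model of all 18 rats. No member passed an FDR of 0.05 in any of the 3 contrasts between years, in which 0%, 1.31% and 0.478% of 14843 genes passed for Year 1 against 0.5, Year 2 against 0.5 and Year 2 against 1. At an unadjusted p under 0.05 there were 2, 2 and 4 members, and DESeq2 called 0, 0 and 1. For Year 2 against Year 1 the difference in log2 fold change was -1.13 (SE 0.43, FDR 0.199) for *Dll4*, -0.84 (SE 0.33, FDR 0.212) for *Hey1* and 0.48 (SE 0.14, FDR 0.0943) for *Notch2*, which DESeq2 called (FDR 0.0276) and edgeR called without control replicate 1 of Year 1. For Year 2 against Year 0.5 it was -0.68 (SE 0.25, FDR 0.218) for *Dll1* and -0.53 (SE 0.25, FDR 0.36) for *Notch4*. The larger Year 2 folds of these genes were therefore not shown to differ from the earlier ones.

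Within the control rats, no member was a DEG between Year 2 and Year 0.5, nor passed by FDR alone (0.633% of all genes were DEGs and 6.65% passed by FDR alone). An unadjusted p under 0.05 was seen for *Notch3* (-0.31, FDR 0.115) and *Hes1* (-0.34, FDR 0.0898), and DESeq2 called 0. Within the treated rats, no member was a DEG by edgeR (2.34% of all genes) and 3 passed by FDR alone (13.5% of all genes), 4 by DESeq2. *Dll1* fell by 0.65 (FDR 0.0237) and *Hes1* by 0.42 (FDR 0.0277) on the log2 scale, and *Jag2* rose by 0.31 (FDR 0.0412). *Dll4* (-0.88, FDR 0.0722) and *Hey1* (-0.73, FDR 0.0598) did not pass.

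Markers of other cell types moved in the same lungs. The alveolar marker *Sftpc*, which encodes a surfactant protein and marks alveolar type II cells, averaged at least 19417 TPM in every group. Of the endothelial list (15 genes, 14 used here, *Pecam1* not analysed here), 13 were tested and 13, 12 and 12 were lower by FDR at the successive time points. The summed endothelial TPM was 3880 to 4343, 3585 to 3855 and 3401 to 4216 in the controls of Years 0.5, 1 and 2, and 1709 to 2342, 1542 to 2094 and 1166 to 1626 in treated rats. The log2 ratio of its means was -0.96, -0.95 and -1.44. The median log2 fold change of the tested endothelial markers was -0.83, -0.73 and -1.41, with *Cdh5*, which encodes the junction protein VE-cadherin, at -0.82, -0.67 and -1.07 and *Kdr*, a receptor for vascular endothelial growth factor, at -1.12, -0.73 and -1.58. Of 5 arterial markers 5, 3 and 4 were lower by FDR, and their sum was 373 to 492 TPM over all controls and 153 to 274 TPM over all treated rats. *Robo4* was near 0 in every group.

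Smooth muscle and pericyte markers were lower for 9, 9 and 7 of 9 genes, with a summed TPM of 1270 to 1827 over the controls and 656 to 971 over the treated rats. All 10 macrophage markers rose in every year, and their sum was 591 to 796 TPM over the controls and 4309 to 7809 TPM over the treated rats. The airway list had 2, 4 and 3 of 5 tested genes lower and none higher. Its sum was 18007.9 to 32690.7 TPM over the controls and 10458.1 to 15487.4 TPM over the treated rats. Most of that sum was the single gene *Scgb1a1*, so it says little about the rest of the list. *Scgb1a1* averaged 27083, 28232 and 21145 TPM in controls and 13384, 12692 and 10509 TPM in treated rats. The alveolar list had 4, 3 and 4 of 9 lower and 5, 5 and 5 higher. The alveolar sum was higher in treated rats, at 52043.8 to 61965.8 TPM against 31038.5 to 39609.4 TPM over the controls. Cardiac muscle genes, which can come with the large veins of the lung, had 6, 2 and 1 lower, and lymphocyte genes had 6, 3 and 4 of 8 lower and 1, 1 and 1 higher. No gene of these lists was at 0 in every rat. The part of these cell-type shifts in the changes of the Notch genes was not tested.

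As a share of the endothelial sum, the Notch genes differed in direction. The sum itself fell, and the treated rats lay above the controls for 79.6%, 76.7% and 84.6% of all tested genes at Years 0.5, 1 and 2 and below them for 1.17%, 2.08% and 1.66%. Of the 10 members, 5, 3 and 6 lay above and 0, 1 and 1 below. *Dll4* was 2.84% to 3.31% of the sum in the Year 2 controls and 1.45% to 1.71% in the treated rats, without overlap, whereas at Year 0.5 the shares overlapped at 2.08% to 3.82% and 1.68% to 2.32%. *Notch4* overlapped in every year, with 1.30% to 1.60% in controls and 1.60% to 1.64% in treated rats at Year 2. That Year 2 overlap was very narrow, with the lowest treated rat at 1.5999% and the highest control at 1.6002%. *Hey1* overlapped in every year as well. *Dll1* was below the controls at Year 1 only, at 0.671% to 0.759% against 0.810% to 0.990%. At Year 2 *Notch1*, *Notch2*, *Notch3*, *Jag1*, *Jag2* and *Hes1* lay above the controls, like most genes, and at Year 1 *Notch1*, *Notch3* and *Jag1* overlapped. *Notch2* made up 0.718% to 0.965% of the sum in the Year 2 controls and 2.06% to 2.83% in the treated rats.

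**Figure D3:**
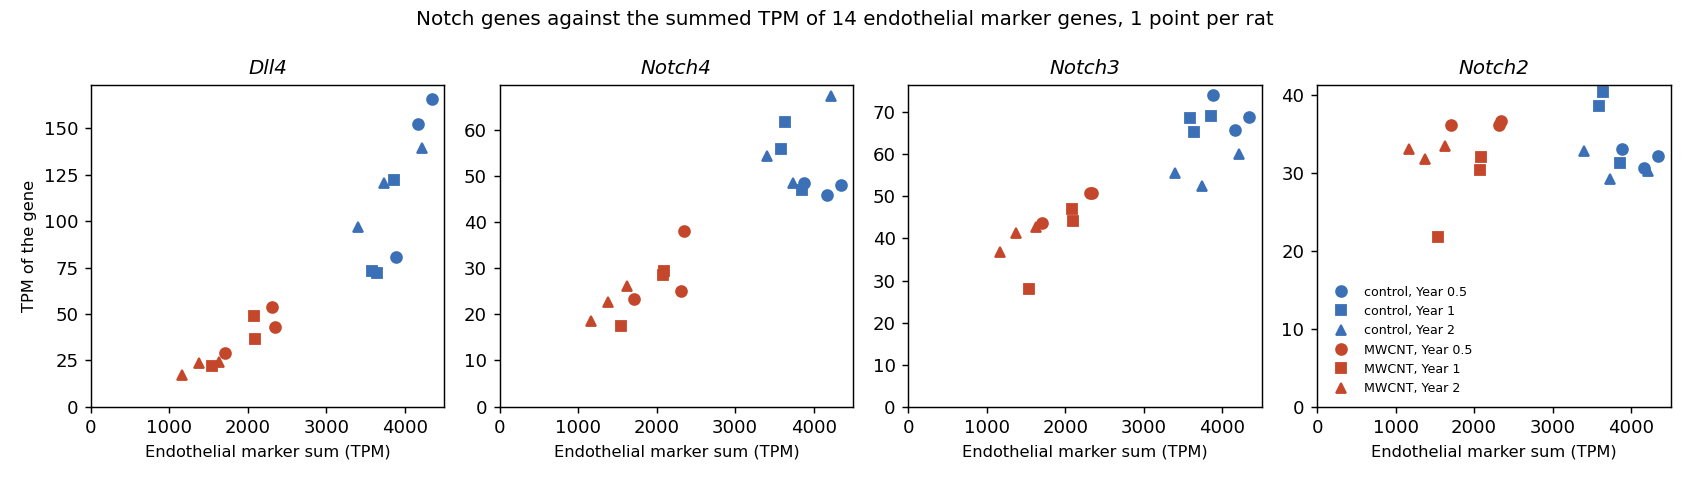
TPM of *Dll4*, *Notch4*, *Notch3* and *Notch2* (vertical axes) against the summed TPM of 14 endothelial markers (horizontal axes), 1 point per rat, blue for control and red for MWCNT-treated, with the symbol giving the year. The treated rats lie at sums of 1166 to 2342 TPM and the controls at 3401 to 4343 TPM, and at Year 2 *Dll4* is 1.45% to 1.71% of the sum in treated rats.

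Other genes of the pathway were listed by role (45 genes, 43 used here and 39 tested, with *Maml3* and *Kat2b* not analysed here). Of these, 3, 4 and 5 were DEGs lower in treated lungs and 1, 0 and 0 higher, and by FDR alone 12, 12 and 13 of the 39 were lower and 9, 10 and 10 higher. Over all genes, 3.03%, 4.09% and 8.22% were DEGs lower, 18.6%, 19.6% and 24% were lower by FDR alone and 20.2%, 21.6% and 25.2% were higher by FDR alone, so the higher counts of the list lay near the share of all genes. Their median log2 fold change was -0.05, -0.14 and 0.01, against -0.02, 0.00 and -0.01 over all genes.

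Several target and modulator genes were lower with *Dll4* and *Hey1*. Of 5 other target genes tested, *Nrarp* and *Hey2* were lower by FDR in each year, and 1, 0 and 0 were higher. *Heyl* (0.09, -0.64 and 0.14) and *Hes6* (-0.13, 0.10 and -0.09) passed in no year. *Nrarp*, a Notch target whose product limits Notch signalling, was a DEG in each year at -1.48 (FDR 0.00339), -1.07 (FDR 0.0221) and -2.40 (FDR 1.09e-05). The Year 1 call of *Nrarp* was lost without control replicate 1 (-0.63), treated replicate 2 (-0.88) or treated replicate 3 (-1.05, FDR 0.0602). *Hey2*, a *Hey1* relative of arteries, had log2 fold changes of -1.32, -0.94 and -1.84, and was a DEG at Year 0.5 and Year 2. *Dlk1*, a ligand without the usual receptor-binding domain, had log2 fold changes of -5.15, -3.69 and -4.32, was a DEG in every year, and was at most 13 TPM in treated rats against at least 50.4 in controls. *Mfng*, which adds sugars to Notch receptors, was at -0.68, -0.53 and -1.05 and a DEG at Year 2, which was lost without control replicate 2 (-0.96). *Dtx1*, a ubiquitin ligase of Notch, was at -0.94, -1.27 and -1.08 and a DEG at Year 1 and Year 2, the latter lost without treated replicate 2 (-0.84). *Neurl1*, which marks ligands for uptake, was at -0.43, -1.0 and -0.61 and a DEG at Year 1, at the threshold, which was lost under 5 of 12 alternatives. *Hes7*, a Hes repressor of low abundance (7 to 48 counts per rat), was at 1.20 (FDR 0.0312), -0.27 (FDR 0.508) and 1.00 (FDR 0.0627). Its Year 0.5 call was lost under 7 of 12 alternatives, among them limma on TPM (0.75) and leaving out treated replicate 2 (0.92, FDR 0.143).

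*Rbpj*, *Adam17* and *Psen2* rose under TMM scaling in every year, and the rises of the other cutting enzymes were smaller. By FDR, none of the 3 proteases that process Notch receptors was lower, and 2, 2 and 3 were higher. With library size alone 2, 1 and 1 of the 3 passed, and with limma on TPM the counts were the same. *Adam17* was at 0.57, 0.62 and 0.74, and at 0.46, 0.49 and 0.57 with library size alone. The treated TPM of *Adam10*, another of the 3, lay below the controls at Year 1. Of 5 listed gamma-secretase genes 4, 5 and 4 were higher and none lower, with *Ncstn*, which encodes the subunit nicastrin, at 0.24, 0.28 and 0.42. *Psen2*, another gene of the complex, was at 0.46 (FDR 0.00411), 0.45 (FDR 0.0112) and 0.64 (FDR 0.000688). In TPM, the treated rats lay above the controls for *Psen2* at Year 0.5 and Year 2 and overlapped them at Year 1. With library size alone 1, 2 and 2 of the 5 passed, and with limma on TPM 1, 0 and 2. Mean TPM of *Ncstn* was 112, 112 and 98.8 in controls and 119, 115 and 113 in treated rats, and *Psenen*, another subunit, had TPM below the controls at Year 2 (means 206 against 233). *Rbpj* was at 0.34 (FDR 0.0137), 0.55 (FDR 0.000703) and 0.71 (FDR 0.00022), and with limma on TPM at 0.19 (FDR 0.0932), 0.31 (FDR 0.0168) and 0.49 (FDR 0.00568), while its coactivator *Maml2* was lower at -0.37, -0.53 and -0.52. Ubiquitin ligases of ligands were lower for 2, 3 and 3 of 4 genes.

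**Figure D4:**
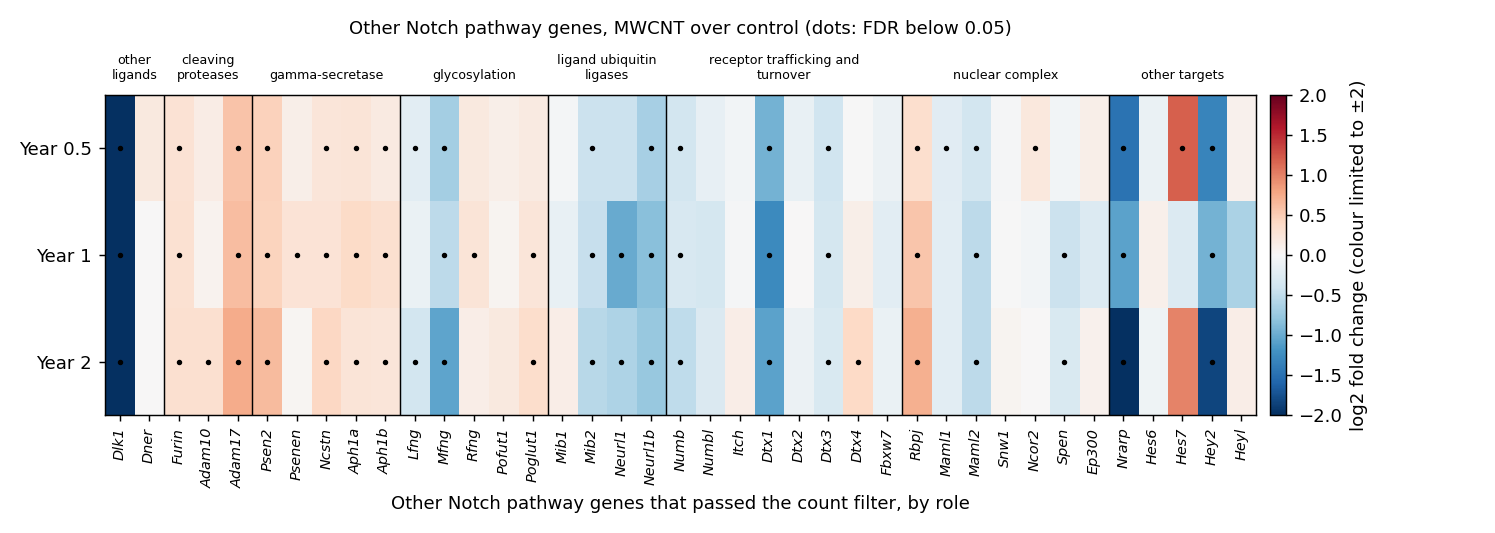
Log2 fold change of MWCNT-treated over control lungs for the 39 other Notch pathway genes with enough counts (columns, grouped by role) at each year (rows). Blue is lower and red higher, colour is limited to 2 in either direction, and dots mark an FDR under 0.05. Most gamma-secretase columns are red, with *Ncstn* at 0.24, 0.28 and 0.42, and *Nrarp* and *Hey2* among the targets are blue in every year.

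For the 4 members called in any year, the genes with the most similar profile over the 18 rats were found by the root mean square difference of centred log2 CPM among 14843 genes. Nearest to *Dll4* were *Nrarp* (0.192), *Foxf1* (0.211) and *Efnb2* (0.217), the last of which encodes the arterial ephrin-B2. Nearest to *Notch4* were *Kank3* (0.101), *Hipk4* (0.124) and *Myrip* (0.135). Nearest to *Dll1* were *Dlc1* (0.166), *Pcdh12* (0.175) and *Exph5* (0.178), and nearest to *Hey1* were *Fzd4* (0.217), *Acer2* (0.226) and *Epb41l4a* (0.228). The profiles of all these genes include the treatment difference, so likeness is a description only.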

How the data were processed

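RNA of 18 rat lungs was sequenced by the authors, and reads were mapped to the rat genome (Rnor_6.0 per the submitters' processing notes) in CLC Genomics Workbench. The deposited counts per gene were used for all tests, and the deposited TPM values for levels. Handling of multi-mapping reads and strand is not given in the sources used here. Columns of the authors' own comparisons (fold changes, p-values) and 36 per-rat columns of other units were not used. Genes without enough counts were removed by filterByExpr (minimum count 10, minimum total 15), and counts were scaled by TMM and tested for each year on 6 rats with edgeR 4.0.16 (R 4.3.3), with Benjamini-Hochberg adjustment over all genes. Interactions and time effects used all 18 rats. Alternatives were DESeq2 1.42.0, limma 3.58.1 on log2(TPM + 1), library size only, no filter, a replicate block, FDR alone, all 18 rats in one model and leaving out each rat. P-values measure the spread between 3 rats a group, which the labels give as separate animals. Log2 CPM used a prior count of 2. The scripts were tested on simulated data. Marker lists covered endothelium, arteries, smooth muscle and pericytes, macrophages, airway, alveoli, cardiac muscle and lymphocytes. Named genes were the 10 members, listed pathway genes called in any year, the 3 nearest profiles of each called member and, from the marker lists, the first examples. Outside this rule, *Rbpj*, *Adam17*, *Adam10*, *Psen2*, *Ncstn*, *Psenen*, *Maml2*, *Heyl*, *Hes6* and the endothelial marker *Robo4* were named as well. A pathway gene is not reported here and was left out of the list. Members and lists were chosen with earlier results of these data known, and promoter motifs were chosen with the members known.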

Additional observations from a re-analysis of the deposited data

Results flagged for a closer look

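*Hes7* moved in opposite directions between years, which was flagged because all 3 treated rats lay above the 3 controls in TPM at Year 0.5 and Year 2 and below them at Year 1. Its log2 fold change was 1.20 at Year 0.5, -0.27 at Year 1 and 1.00 at Year 2. The difference itself was tested as an interaction and did not pass (FDR 0.545 for Year 1 against Year 0.5 and 0.207 for Year 2 against Year 1). Counts were 7 to 48 per rat, and the Year 0.5 call was lost under 7 of 12 alternatives.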

How the results depend on the processing

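No member changed the sign of its log2 fold change in any year under the 12 alternatives tried for each. With FDR alone, 9, 8 and 8 members and 21, 22 and 23 other pathway genes passed at Years 0.5, 1 and 2, and 3 members passed for treated lungs at Year 2 against Year 0.5. The count of members called at Year 1 was 4 with limma on TPM. DESeq2 gave 1 member for the interaction of Year 2 against Year 1. Leaving out each rat in turn gave 1 to 2, 0 to 3 and 3 to 4 members called in order of year, with 0 at Year 1 without control replicate 1 or treated replicate 2. For other pathway genes it gave 3 to 5, 2 to 5 and 4 to 5, for the interaction of Year 2 against Year 1 it gave 0 to 1, and for treated lungs at Year 2 against Year 0.5 it gave 0 to 1 (*Dll4*, without treated replicate 2 of Year 0.5). The cause of these moves was not tested. With library size only, the median of all genes shifted to -0.12, -0.13 and -0.18. With the replicate block, 1, 2 and 4 members and 3, 3 and 5 other pathway genes were called, against 4, 4 and 5 without it, and no member was called in the interaction contrasts. Replicate numbers belong to separate rats. Deviations of same-numbered rats correlated at -0.15 to 0.11, and 4 of 9 control rats correlated best with their own number, so the samples share only a number. With 3 rats a group, small changes such as those of *Jag1* and *Jag2* lie near the limit of what these data can show.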

Other observations

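Levels of the members were related to each other across rats within each treatment (45 pairs in each, 9 rats, exact permutation tests). The permutations mixed rats of all years, so a shared difference between years enters the p-values. Values of r after centring within year were not tested. In treated rats, 5 pairs passed Benjamini-Hochberg adjustment by Pearson r, and in controls none did. The 5 were *Notch1* with *Notch3* and with *Notch4*, *Dll1* with *Dll4* and with *Hes1*, and *Dll4* with *Hes1*. The rank correlation rho gave another set of pairs in treated rats and none in controls. By rho, *Notch1* with *Notch4* did not pass (permutation p = 0.0214, adjusted 0.0802). Pairs outside the 5 passed, such as *Notch3* with *Dll4* (rho = 0.95, permutation p = 0.000353, adjusted 0.013). *Notch1* and *Notch3* had r = 0.946 (permutation p = 7.72e-05, adjusted 0.00347) and rho = 0.90 (permutation p = 0.00203) in treated rats, r = 0.926 once the 2 rats with the most extreme *Notch1* were left out, and r = 0.952 after centring within year. *Dll1* and *Hes1* had r = 0.917 (permutation p = 0.000989, adjusted 0.0208) and rho = 0.90 (permutation p = 0.00203), r = 0.866 without 2 rats, and r = 0.872 after centring within year. In controls *Dll4* and *Hey1* had r = -0.825 (permutation p = 0.00888, adjusted 0.156) and rho = -0.617 (permutation p = 0.0857), r = -0.638 without 2 rats, and r = -0.858 after centring within year. Other control pairs had a similar unadjusted p, such as *Notch2* and *Dll4* (r = -0.799, permutation p = 0.00521, adjusted 0.156). Each year held 3 rats per treatment, too few for a value of its own.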
